A study of Mus musculus with 24 samples.

Results

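Nnt, the nicotinamide nucleotide transhydrogenase of the inner mitochondrial membrane, was followed in mouse quadriceps together with 8 other genes of NADPH supply and peroxide removal. The set of 9 genes was named by role and chosen with earlier results of these arrays known: Nnt, Idh2 and Idh1 supply NADPH, Gsr, Txnrd2 and Txn2 carry its electrons, Prdx3 and Prdx5 remove peroxide, and Sod2 makes peroxide from superoxide. Of the 9 genes, 8 had a probe set of their own among the 14754 genes of the annotation used here. Prdx5 had none listed there and was not analysed here. All 8 measured genes passed the filter on dim probe sets (log2 intensity over 4 on at least 6 arrays), which kept 5793 genes. The genes were chosen by the levels given below and their pattern over the 4 groups, so for them the differences between groups are a description without a test.

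The samples were whole quadriceps, a mostly fast-fibred thigh muscle, of male mice whose strain the labels spell C56BL/6J. High fat mice ate a palm oil diet with 45% of the energy as fat and low fat mice its counterpart with 10%, and all had first eaten the low fat diet for 3 weeks. The 4 groups were high fat day 3, low fat day 3, high fat day 28 and low fat day 28, with 6 mice and 6 arrays each, 24 arrays in all. Mice were 12 weeks old at day 3 and 16 weeks old at day 28, so age and time on the diet go together. The labels state random assignment, yet mouse numbers ran from 1767 to 1772 and from 1751 to 1758 in the high fat groups (day 3 and day 28) and from 2010 to 2019 and from 2020 to 2025 in the low fat groups. Diet and animal set therefore cannot be told apart.

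NNT uses the proton gradient across the inner membrane to pass hydride from NADH to NADP, and so makes NADPH inside mitochondria. Idh2 encodes the mitochondrial NADP-dependent isocitrate dehydrogenase, which makes NADPH in the same compartment, and Idh1 encodes its cytosolic counterpart. NADPH keeps glutathione (through glutathione reductase, Gsr) and mitochondrial thioredoxin (through Txnrd2 and Txn2) reduced, and peroxiredoxins such as Prdx3 then use thioredoxin to remove hydrogen peroxide. C57BL/6J mice are known for a deletion of several exons of Nnt that leaves no detectable NNT protein, whereas other C57BL/6 sublines such as C57BL/6N carry the intact gene. No source used here says which exons the Nnt probe set reads, and its level therefore does not check the deletion.

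Promoters are shown for Idh2 and Idh1, the enzyme pair whose diet differences had opposite signs at day 28, and for Sod2. They run from 250 bases before to 50 after a RefSeq gene start (GRCm38.p6), 5′ to 3′ on the gene's strand. Capitals mark the GC box letters GGGCGG and the CCAAT box letters, each on either strand. Idh2 lies on the minus strand at chr7:80115301-80115600, the first Idh1 start on the minus strand at chr1:65186430-65186729, and Sod2 on the plus strand at chr17:13007589-13007888.
Idh2: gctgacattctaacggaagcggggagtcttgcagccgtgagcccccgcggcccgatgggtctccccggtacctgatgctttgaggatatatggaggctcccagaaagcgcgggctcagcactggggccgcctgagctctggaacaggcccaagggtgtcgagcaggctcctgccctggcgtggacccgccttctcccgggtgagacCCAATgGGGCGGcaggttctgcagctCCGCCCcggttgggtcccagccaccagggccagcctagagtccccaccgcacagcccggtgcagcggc
Idh1: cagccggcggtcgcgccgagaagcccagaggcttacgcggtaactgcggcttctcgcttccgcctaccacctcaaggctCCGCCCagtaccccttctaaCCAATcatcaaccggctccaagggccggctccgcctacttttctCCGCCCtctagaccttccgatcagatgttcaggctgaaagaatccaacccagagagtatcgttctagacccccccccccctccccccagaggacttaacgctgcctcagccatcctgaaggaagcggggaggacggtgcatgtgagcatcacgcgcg
Sod2: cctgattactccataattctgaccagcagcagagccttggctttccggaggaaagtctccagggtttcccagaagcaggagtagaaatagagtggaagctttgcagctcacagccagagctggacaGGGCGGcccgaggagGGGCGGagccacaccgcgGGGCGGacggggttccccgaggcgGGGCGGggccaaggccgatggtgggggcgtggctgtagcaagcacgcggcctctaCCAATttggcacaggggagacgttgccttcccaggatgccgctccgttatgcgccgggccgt
The Idh2 promoter held 2 GC boxes and 1 CCAAT box, that Idh1 promoter 2 and 1, and the Sod2 promoter 4 and 1. Of all 32851 promoters in the table, 35.7% held a GC box and 37.4% a CCAAT box. The table held 8 promoters for 7 of the 9 genes, none of them for Nnt or Gsr. Across these 8, no match was found to the antioxidant response element core TGACNNNGC (12.4% of all promoters), to the oestrogen-related receptor site TCAAGGTCA (0.423%) or to the nuclear respiratory factor 1 site (4.6%), on either strand. A match describes letters in a window, not a bound site. The 3 promoters shown had a GC content of 68.3%, 62.0% and 64.3%, above the 52.7% median of the table.

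The arrays behind these values had median intensities of 6.56 to 6.90, and any pair correlated at 0.978 to 0.995 across probe sets. Levels below are log2 intensities, and differences are high fat minus low fat on the log2 scale with the standard error (SE) of a limma fit over all 24 arrays. Across all genes, 14.9% of the 5793 were called at day 3 (7.99% higher and 6.87% lower on high fat) at an adjusted p under 0.05, and 12.5% at day 28 (5.35% higher and 7.18% lower). Beside these shares, 3 of the 8 genes were called higher at day 3 (Nnt, Idh2, Sod2) and 0 lower, and at day 28, 2 were called higher (Nnt, Idh2) and 1 lower (Idh1). Since these contrasts chose the set, nothing is read from those counts. The median difference of the 8 genes was 0.16 at day 3 and 0.11 at day 28, against -0.005 and 0.010 over all tested genes. In bulk muscle, fewer cells of a type and less RNA per cell cannot be told apart. The labelled tissue carried its markers: the summed intensity of Ckm, Acta1, Myh4, Mb, Tnnt3 and Des was 71520 to 74301 in high fat and 67737 to 73154 in low fat mice at day 3, and 73755 to 75940 in high fat and 68603 to 71799 in low fat mice at day 28.

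Nnt had the widest gap between the diets among the 8 genes. Its lowest, median and highest levels were 7.75, 7.93 and 8.47 in high fat mice and 6.07, 6.75 and 6.90 in low fat mice at day 3. At day 28 they were 7.68, 7.97 and 8.01 in high fat mice and 5.98, 6.40 and 6.86 in low fat mice. All 12 high fat arrays lay above all 12 low fat arrays, with 0.79 between the lowest high fat and the highest low fat level. Within day 3 alone Nnt, Idh2 and Sod2 lay wholly above the low fat arrays, against 3.5% of all genes, and within day 28 Nnt and Idh2 did, against 3.49%. Separation over both days at once occurred for 60 of the 5793 tested genes, a background of 1.04%. The difference was 1.39 ± 0.16 (SE) at day 3, or 2.63-fold, and 1.45 ± 0.16 at day 28, or 2.74-fold. The differences at the 2 days were themselves 0.06 ± 0.22 apart.

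Ordered by mean, Nnt stood at 8.01 ± 0.27 (SD, n = 6) in high fat mice at day 3, 7.90 ± 0.14 in high fat mice at day 28, 6.62 ± 0.34 in low fat mice at day 3 and 6.45 ± 0.32 in low fat mice at day 28. Within either diet the days differed by less than the spread between mice (-0.11 ± 0.16 SE on high fat and -0.17 ± 0.16 SE on low fat, day 28 minus day 3). The step between the diets exceeded that spread. The lowest level of all 24 arrays was 5.98, in low fat day 28 replicate 4.

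**Figure D1:**
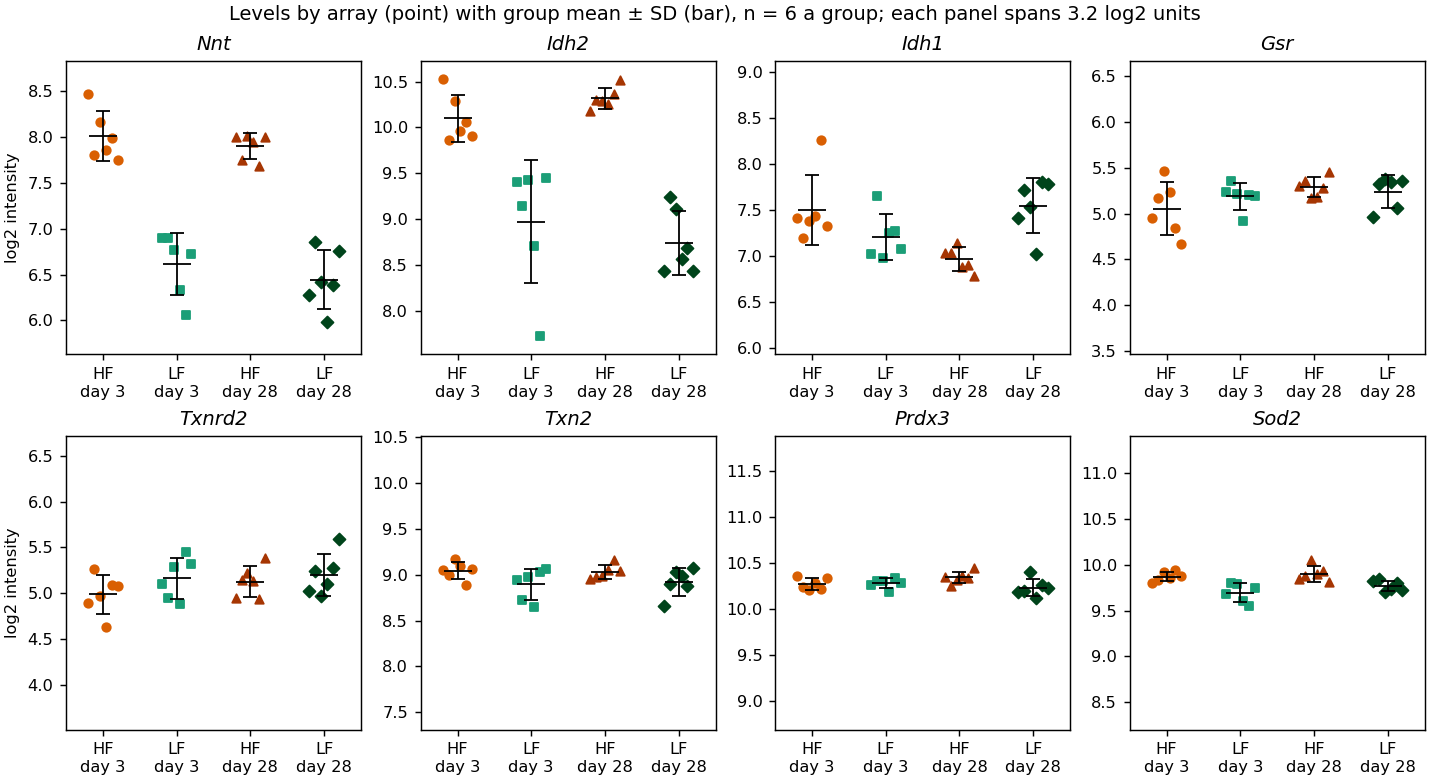
Log2 intensity of the 8 measured genes by group, 1 point per array, with the mean and SD of 6 arrays as bars. Each panel spans the same 3.2 log2 units. For Nnt and Idh2 all 12 high fat arrays lie above all 12 low fat arrays, while Gsr, Txnrd2, Txn2 and Prdx3 overlap between diets at both days.

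Idh2, the mitochondrial isocitrate dehydrogenase, was the other gene with no overlap between diets. Its lowest, median and highest levels were 9.87, 10.01 and 10.53 in high fat mice and 7.72, 9.27 and 9.44 in low fat mice at day 3, and 10.18, 10.29 and 10.52 in high fat mice and 8.43, 8.62 and 9.24 in low fat mice at day 28. The gap between the 12 high fat and the 12 low fat arrays was 0.42. The difference was 1.13 ± 0.22 (SE) at day 3, or 2.18-fold, and 1.57 ± 0.22 at day 28, or 2.97-fold. The change in the difference between days was 0.45 ± 0.31 (SE). Low fat day 3 replicate 5 held the lowest Idh2 level of all arrays, 7.72, and it was also lowest of its group for Nnt (6.07) and Sod2 (9.55). In the plot of levels by array, that mouse widens the low fat day 3 spread of Idh2 to an SD of 0.67, against 0.26 in high fat mice at day 3.

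Idh1, the cytosolic isozyme, had a different course from Idh2. Its lowest, median and highest levels were 7.19, 7.40 and 8.27 in high fat mice and 6.97, 7.17 and 7.65 in low fat mice at day 3. At day 28 they were 6.78, 6.97 and 7.14 in high fat mice and 7.02, 7.63 and 7.81 in low fat mice. The diets overlapped at both days. The difference was 0.29 ± 0.16 (SE) at day 3 and -0.59 ± 0.16 at day 28, or 0.666-fold, so the sign of the Idh1 difference changed between the days. The change of the Idh1 diet difference between days was -0.88 ± 0.22 (SE). Of the 8 genes Idh1 was the only one past the threshold there, where 1.38% of all genes were called in either direction and 0.708% lower. The 6 high fat mice at day 28 all lay below the 6 high fat mice at day 3, by -0.54 ± 0.16 on average, an absence of overlap in that direction found in 0.967% of genes. Without high fat day 3 replicate 5, whose Idh1 level of 8.27 stood above the next highest at 7.43, the day 3 difference was 0.14 and the change between days -0.73. Idh1 was not past the threshold for that change without low fat day 3 replicate 1 (-0.84), with no filter on dim genes (-0.88) or with the mean of adipocyte markers in the fit (-0.53).

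Among the electron carriers, Gsr, which reduces glutathione, had levels of 4.67, 5.06 and 5.46 (lowest, median, highest) in high fat mice and 4.92, 5.21 and 5.36 in low fat mice at day 3, and 5.17, 5.29 and 5.45 in high fat mice and 4.97, 5.34 and 5.38 in low fat mice at day 28. The diets overlapped, and the difference was -0.13 ± 0.11 (SE) at day 3 and 0.05 ± 0.11 at day 28. Txnrd2, which reduces mitochondrial thioredoxin, spanned 4.63 to 5.26 in high fat and 4.88 to 5.45 in low fat mice at day 3, and 4.93 to 5.38 in high fat and 4.97 to 5.60 in low fat mice at day 28. Its difference was -0.18 ± 0.12 at day 3 and -0.07 ± 0.12 at day 28. Both genes were read at low intensity. Txn2, the mitochondrial thioredoxin, spanned 8.89 to 9.17 in high fat and 8.65 to 9.06 in low fat mice at day 3, and 8.95 to 9.16 in high fat and 8.66 to 9.08 in low fat mice at day 28. Its difference was 0.15 ± 0.08 at day 3 and 0.11 ± 0.08 at day 28, with overlap at both.

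Of the peroxide-handling enzymes, Prdx3, the mitochondrial peroxiredoxin, had nearly the same level in all 4 groups. Its lowest, median and highest levels were 10.20, 10.26 and 10.36 in high fat and 10.18, 10.29 and 10.34 in low fat mice at day 3, and 10.25, 10.34 and 10.45 in high fat and 10.12, 10.21 and 10.40 in low fat mice at day 28. The difference was -0.007 ± 0.05 (SE) at day 3 and 0.11 ± 0.05 at day 28. Sod2, the manganese superoxide dismutase, had levels of 9.80, 9.86 and 9.94 in high fat and 9.55, 9.71 and 9.80 in low fat mice at day 3, and 9.81, 9.89 and 10.05 in high fat and 9.70, 9.77 and 9.84 in low fat mice at day 28. Its groups did not overlap at day 3 and overlapped at day 28. The Sod2 difference was 0.18 ± 0.05 (1.13-fold) at day 3 and 0.13 ± 0.05 (1.10-fold) at day 28, a small step beside that of Nnt. At day 3 it was close to the threshold: it was not called without high fat day 3 replicate 5 (difference 0.16), under quantile normalization (0.15), with no filter (0.18), with only the day 3 arrays (0.18), with array weights (0.14) or with any of the 3 marker means below in the fit.

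**Figure D2:**
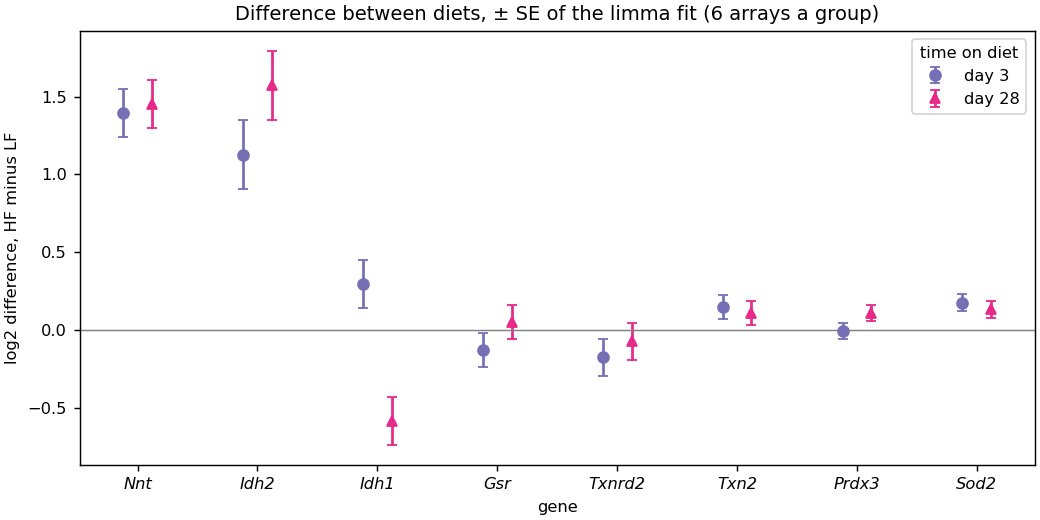
Difference in log2 intensity, high fat minus low fat, for each gene at day 3 (circles) and day 28 (triangles), with the SE of the limma fit as bars (6 arrays per group). Nnt and Idh2 stand above 1 at both days, Idh1 changes sign between days, and the other 5 genes stay between -0.18 and 0.18.

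Between day 28 and day 3 on the same diet, 0 of the 8 genes were called by limma on either diet, where 0.552% of all genes were called on high fat and 0.345% on low fat. At an unadjusted p under 0.05 these were 2 genes on high fat (Idh1 and Gsr) and 1 on low fat (Idh1). Of all 5793 tested genes, 834 on high fat and 964 on low fat were under the same unadjusted threshold, so nothing is read from those counts. Idh1 differed by -0.54 ± 0.16 (SE) on high fat and by 0.34 ± 0.16 on low fat. The remaining differences between days ran from -0.23 (Idh2 on low fat) to 0.23 (Gsr on high fat).

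Slow fibre genes moved with diet in the same arrays. The mean of Myh7, Myl2, Myl3, Tnnc1, Tnni1 and Tnnt1, which encode slow myosin and troponin chains, was 9.73 ± 1.09 (SD, n = 6) in high fat and 4.68 ± 1.86 in low fat mice at day 3, and 9.56 ± 0.48 in high fat and 5.04 ± 1.71 in low fat mice at day 28. Their summed intensity ran from 2882 to 18479 in high fat and 62.4 to 1387 in low fat mice at day 3, and from 3722 to 6893 in high fat and 66.5 to 1697 in low fat mice at day 28, and 6 of 6 rose at each day (limma). The share of all genes called higher was 7.99% at day 3 and 5.35% at day 28. With that mean in the fit, the Nnt difference was 0.81 at day 3 and 0.93 at day 28, and that of Idh2 was 0.09 at day 3 and 0.64 at day 28. For Sod2 these values were 0.08 and 0.05. The slow fibre means of the diets did not overlap, with a lowest value of 8.40 in high fat and a highest of 7.74 in low fat mice, so these fits cannot tell diet and fibre markers apart.

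Within a group, where diet and day are constant, 32 relations of the 8 genes with the slow fibre mean were computed (exact permutation, two-sided, n = 6 each), and 0 passed Benjamini-Hochberg adjustment, with 3 at an unadjusted p under 0.05. These 3 were Idh2 in low fat mice at day 28 (Pearson r = 0.891, exact p = 0.00694, Spearman rho = 0.943, exact p = 0.0167, adjusted p = 0.222), Idh2 in high fat mice at day 3 (r = 0.915, exact p = 0.0153, rho = 0.771, exact p = 0.103, adjusted p = 0.245) and Nnt in high fat mice at day 3 (r = 0.859, exact p = 0.0278, rho = 0.6, exact p = 0.242, adjusted p = 0.297). Without the 2 arrays farthest from the median slow fibre mean, r was 0.724, 0.686 and 0.509. In high fat mice at day 28, r was -0.214 for Idh2 and -0.246 for Nnt.

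**Figure D3:**
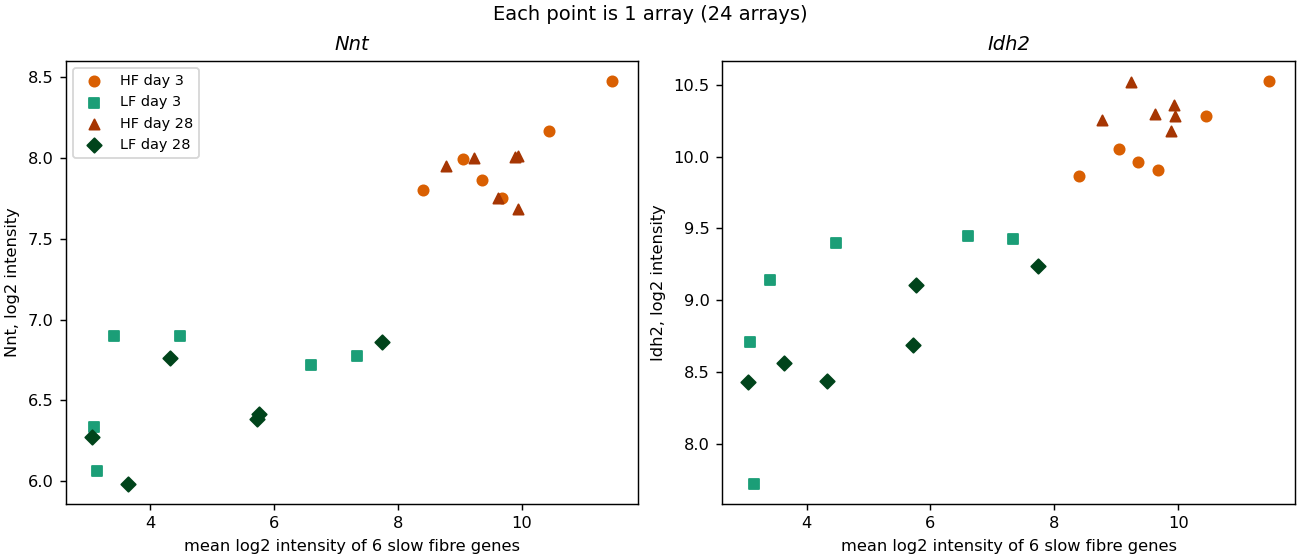
Log2 intensity of Nnt (left) and Idh2 (right) against the mean log2 intensity of 6 slow fibre genes, 1 point per array (24 arrays), with colour and shape giving the group. The high fat arrays lie at slow fibre means of 8.40 and above and the low fat arrays at 7.74 and below, so the diets do not share a range on the horizontal axis.

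Genes of mitochondrial content had smaller differences than Nnt and Idh2. Of 12 tested genes of citrate synthase, the respiratory chain and the outer membrane channel, 1 rose at day 3 (Ndufv1, a complex I subunit, 0.17 ± 0.06 SE) and 2 rose at day 28 (Ndufv1, 0.26 ± 0.06, and Ndufs1, 0.21 ± 0.06), with 0 lower at either day. Beside these counts, 7.99% of all genes were called higher at day 3 and 5.35% at day 28. With only the day 3 arrays, 0 of the 12 genes were called at day 3. The median difference of the 12 genes was 0.13 at both days. Sod2, at 0.18 and 0.13, lay near that median. With the mean of these genes as a covariate, the Nnt difference was 1.07 at day 3 and 1.09 at day 28, and that of Idh2 was 0.43 and 0.78. At day 28 that mean did not overlap between the diets (lowest 11.72 in high fat and highest 11.70 in low fat mice). The fit therefore cannot tell diet and mitochondrial content markers apart at day 28.

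Markers of fat cells moved with diet as well, chiefly at day 28. The mean of 6 tested adipocyte markers was 7.09 ± 1.28 (SD, n = 6) in high fat and 8.72 ± 1.04 in low fat mice at day 3, and 6.26 ± 0.58 in high fat and 9.64 ± 0.54 in low fat mice at day 28. Of the 6, 3 fell at day 3 (Cidec, Retn, Pck1) and 6 fell at day 28. The share of all genes called lower was 6.87% at day 3 and 7.18% at day 28. The day 3 count was 6 of 6 without high fat day 3 replicate 5, without low fat day 3 replicate 1 or with the replicate block, and 0 with only the day 3 arrays (limma). Adipoq, which encodes adiponectin, fell by 2.88 on the log2 scale at day 28. Their summed intensity was 3212 to 9755 in high fat and 3790 to 10987 in low fat mice at day 3, and 2768 to 4224 in high fat and 7220 to 13724 in low fat mice at day 28. Lep was too dim to test, and Plin1 and Cfd were not in the annotation used. With that mean as a covariate the Idh1 difference was 0.62 at day 3 and 0.09 at day 28, while that of Nnt was 1.32 and 1.31 and that of Idh2 1.02 and 1.35. At day 28 the adipocyte means of the diets did not overlap (highest 7.28 in high fat and lowest 8.70 in low fat mice). The fit therefore cannot tell diet and fat cell markers apart at day 28. The array with the highest Idh1 level, high fat day 3 replicate 5, also had the highest adipocyte mean of its group, 9.44.

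Of 32 within-group relations with the adipocyte mean, 0 passed adjustment (exact permutation, lowest adjusted p = 0.668), with 1 at an unadjusted p under 0.05. It was Txn2 in high fat mice at day 28 (Pearson r = 0.861, exact permutation p = 0.0389), with r of -0.0394 without the 2 farthest arrays. Idh1 had r of 0.882, 0.641, -0.372 and 0.623 in high fat day 3, low fat day 3, high fat day 28 and low fat day 28 mice, and without the 2 farthest arrays 0.347, 0.433, -0.291 and 0.365. Macrophage markers were lower on high fat too, with 1 of 7 falling at day 3 and 7 of 7 at day 28, and 5 of 6 endothelial markers rose at day 3 and 0 of 6 at day 28 (limma, with 5 at an unadjusted p under 0.05). Over all genes, 7.99% were called higher and 6.87% lower at day 3, and 5.35% and 7.18% at day 28. Without low fat day 3 replicate 1, 3 endothelial markers were called at day 3, and under quantile normalization 1 was called at day 28. The part of these cells in the Idh1 difference was not tested.

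**Figure D4:**
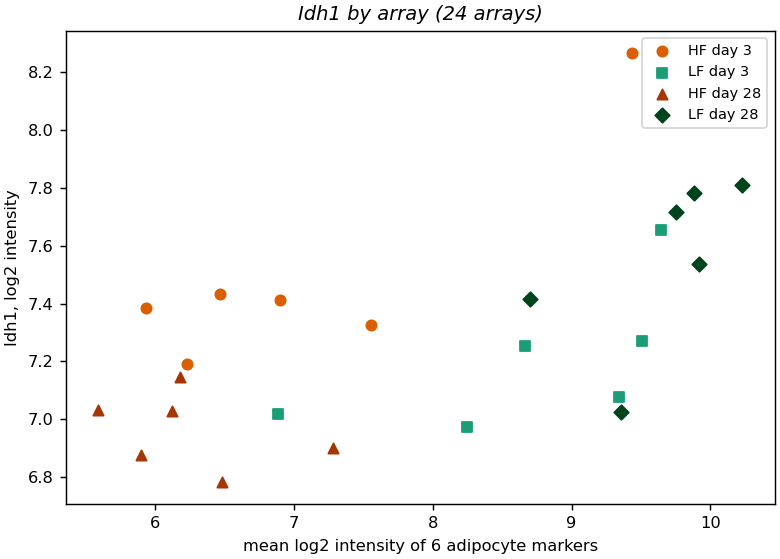
Log2 intensity of Idh1 against the mean log2 intensity of 6 adipocyte markers, 1 point per array (24 arrays), with colour and shape giving the group. High fat day 3 replicate 5 is the point at 9.44 and 8.27. The 6 high fat day 28 arrays lie at low values of both.

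Among the other genes of NADPH supply, 1 gene fell at day 3 and 3 fell at day 28, beside 6.87% and 7.18% of all genes called lower. Of the other listed mitochondrial genes, Me2, Glud1 and Nadk2 had no probe set of their own symbol, and only Me3 was bright enough to test. Me3, a mitochondrial malic enzyme, had a difference of -0.05 ± 0.12 (SE) at day 3 and 0.35 ± 0.12 at day 28 (limma adjusted p = 0.81 and 0.063). Me3 was called higher at day 28 under quantile normalization (0.37) and with the replicate block, and lower at day 3 with the mitochondrial content mean in the fit (-0.41). The genes that fell were among 4 tested genes listed as cytosolic and reticular sources, of 7 listed, the rest having no probe set of their own symbol. With the slow fibre, adipocyte or mitochondrial content mean in the fit, 0 of these 4 were called at either day. Those fits called 20, 841 and 352 of all genes at day 3, and 42, 26 and 42 at day 28. With the adipocyte mean the median difference of the 4 at day 3 was 0.125, against -0.331 in the main fit. H6pd, which makes NADPH in the endoplasmic reticulum, fell at both days (-0.53 ± 0.14 and -0.56 ± 0.14, limma adjusted p = 0.0109 and 0.00786). Nadk encodes the NAD kinase, which makes NADP from NAD and not NADPH itself. Nadk averaged 5.96 ± 0.11 (SD, n = 6) in high fat and 6.68 ± 0.17 in low fat mice at day 28, a difference of -0.72 ± 0.11 (limma adjusted p = 0.000194). Aldh1l1, a cytosolic folate dehydrogenase, fell at day 28 (limma adjusted p = 0.000265), when it lay at 2.47 to 3.38 in high fat and 3.80 to 5.89 in low fat mice, with all high fat levels below the filter level of 4.

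On the NADH side, the isocitrate dehydrogenase that makes NADH had members that differed in direction. Idh3a differed by 0.09 ± 0.07 (SE) at day 3 and 0.14 ± 0.07 at day 28, Idh3g by 0.06 ± 0.05 and 0.16 ± 0.05, and neither was called. Idh3b fell at day 28 by 0.90 on the log2 scale (SE 0.21, limma adjusted p = 0.00643). Slc25a1, the mitochondrial citrate carrier, fell at both days, though not at day 3 with only the day 3 arrays. Its median was 3.59 in high fat and 6.05 in low fat mice at day 3, and it lay at 2.70 to 3.37 in high fat and 6.47 to 8.85 in low fat mice at day 28. The high fat levels at day 28 were below the filter level of 4, so no size is given for that fall. Slc25a11, the oxoglutarate carrier, rose by 0.20 at day 3 and 0.21 at day 28. At day 3 Slc25a11 was not called with only the day 3 arrays or without high fat day 3 replicate 5. In all, 1 of 8 genes of this list rose and 1 fell at day 3, and 2 rose and 2 fell at day 28, with Mdh2, the mitochondrial malate dehydrogenase, among those that rose (0.15 ± 0.04). The shares over all genes were 7.99% higher and 6.87% lower at day 3, and 5.35% and 7.18% at day 28. With the adipocyte mean in the fit, 1 of the 8 rose and 0 fell at day 3, and 0 were called at day 28. That fit called 841 of all genes at day 3 and 26 at day 28.

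Of 20 tested peroxide, thioredoxin and glutathione genes outside the set, 2 rose and 3 fell at day 3, and 0 rose and 6 fell at day 28, with medians of -0.06 and -0.22 against -0.005 and 0.010 over all genes. Beside these counts, 7.99% of all genes were called higher and 6.87% lower at day 3, and 5.35% and 7.18% at day 28. With only the day 3 arrays, 1 of the 20 was called higher and 2 lower at day 3. Gpx3, the secreted glutathione peroxidase, fell at both days: it averaged 9.79 ± 0.20 (SD, n = 6) in high fat and 10.72 ± 0.21 in low fat mice at day 3, and 10.15 ± 0.25 in high fat and 10.63 ± 0.18 in low fat mice at day 28. Gclm, the modifier subunit of the enzyme that starts glutathione synthesis, fell by 1.07 at day 3 (SE 0.25, limma adjusted p = 0.00519) and differed by -0.53 ± 0.25 at day 28 (adjusted p = 0.185). Prdx1, the abundant cytosolic peroxiredoxin, fell by 0.19 at day 3 and by 0.20 at day 28, and Prdx2, another cytosolic peroxiredoxin, rose by 0.29 at day 3. Glrx5, a mitochondrial glutaredoxin of iron-sulphur cluster assembly, rose by 0.22 at day 3.

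At day 28 the falling genes were Sod3, the extracellular superoxide dismutase (-1.07 ± 0.21 SE, from dim levels of 3.38 to 4.08 in high fat and 4.14 to 5.18 in low fat mice), Gpx1, the widespread glutathione peroxidase (-0.68 ± 0.14), Mgst1, a membrane glutathione transferase (-0.64 ± 0.17), Gpx3 (-0.48 ± 0.12), Slc25a39, the mitochondrial glutathione importer (-0.22 ± 0.05) and Prdx1 (-0.20 ± 0.06). With the adipocyte mean as a covariate, 4 of the 20 genes were called higher and 3 lower at day 3, and 0 were called at day 28. That fit called 841 of all 5793 genes at day 3 and 26 at day 28. With the slow fibre mean in the fit 0 of the 20 were called at either day, when 20 and 42 of all genes were.

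Genes of the Nrf2 axis, the transcription factor that drives many antioxidant genes, were called at about the share of all genes. Of 9 tested, 1 fell at day 3 (Keap1, the Nrf2 inhibitor, -0.52 ± 0.11 SE, limma adjusted p = 0.00329) and 1 fell at day 28 (Hmox1, haem oxygenase), beside 14.9% and 12.5% of all genes called. Hmox1 lay at 2.39 to 3.14 in high fat and 3.38 to 6.57 in low fat mice at day 28, with all high fat levels below the filter level of 4, so no size is given. Nfe2l2, which encodes Nrf2, differed by -0.22 ± 0.11 at day 3 without passing the test, and Nqo1, a common target, by -0.38 ± 0.21 at day 3 and 0.42 ± 0.21 at day 28 (limma adjusted p = 0.224 and 0.209). The 7 tested macrophage markers fell at day 28 as well, and their part in the Hmox1 difference was not tested.

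**Figure D5:**
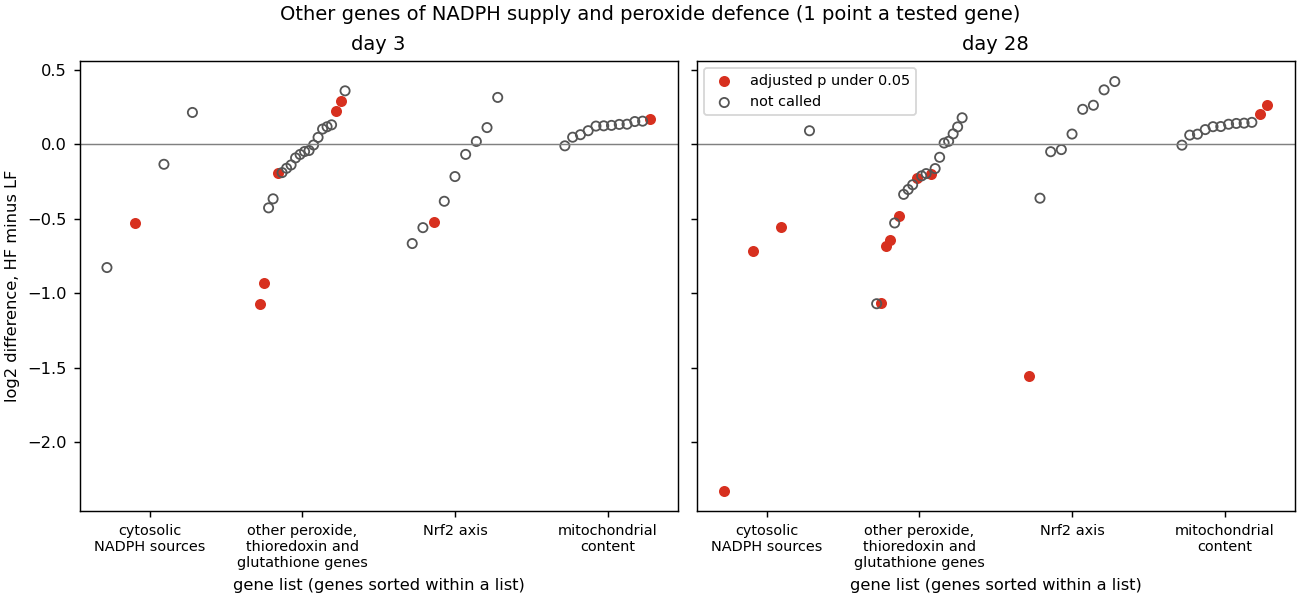
Difference in log2 intensity, high fat minus low fat, at day 3 (left) and day 28 (right) for the tested genes of 4 lists, sorted within each list. Filled points passed an adjusted p under 0.05 (limma). At day 28, 3 of 4 genes listed as cytosolic NADPH sources and 6 of 20 peroxide, thioredoxin and glutathione genes lie among the filled points below 0, and 2 of 12 mitochondrial content genes above it. Of all genes, 7.18% were called lower and 5.35% higher at day 28.

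Genes were also ranked by how closely their levels followed Nnt. Over all 24 arrays, which differ by diet, the 5 tested genes with the highest Pearson correlation with Nnt were Pcp4l1 (0.952), Acaa2 (0.948), Hoxd9 (0.943), Pdlim1 (0.942) and Acadm (0.940), and Idh2 ranked 9 of 5792 (0.932). Acaa2 and Acadm encode enzymes of mitochondrial fatty acid oxidation. The 5 lowest were Hoxc6 (-0.902), Ctsd (-0.886), Cyp2e1 (-0.845), Glul (-0.837) and Cd24a (-0.833). Sod2 had 0.721 (rank 181), Txn2 0.456, Prdx3 0.372, Gsr -0.053, Idh1 -0.129 and Txnrd2 -0.278. These values describe arrays that differ by diet and are no test.

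After each group's mean was subtracted, the order changed, and the 5 highest were Khdrbs3 (0.833), Ahctf1 (0.762), Ppp2r5e (0.761), Mtpap (0.757) and Nae1 (0.757), of which Mtpap encodes the mitochondrial poly(A) polymerase. The 5 lowest were Pdia6 (-0.742), Erp44 (-0.689), Hspb8 (-0.672), Tmub2 (-0.666) and Scamp2 (-0.666), of which Pdia6 and Erp44 act in protein folding in the secretory pathway. Idh2 ranked 17 of 5792 on these residual levels (0.721), and Sod2 had 0.352. Idh2 thus ranked high on both scales, over arrays that differed by diet and after the group means were subtracted. The second value pools the 4 groups and does not give the relation within each. Low fat day 3 replicate 5 was lowest of its group for both genes (6.07 for Nnt, 7.72 for Idh2), and its weight was not tested. In high fat mice at day 28, replicate 5 had the lowest Nnt level (7.68) and an Idh2 level of 10.36, above the median of 10.29.

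Genes listed as differing between C57BL/6 sublines were read beside Nnt. Whether each listed gene differs between sublines was not checked here. With Nnt, 4 such genes were bright enough to test. Besides Nnt these were Ide, which fell at day 3 (-0.84 ± 0.23 SE, limma adjusted p = 0.0156) and differed by -0.45 ± 0.23 at day 28 (adjusted p = 0.229), Entpd4 (-0.01 ± 0.06 and -0.04 ± 0.06) and Btaf1 (0.20 ± 0.11 and -0.03 ± 0.11), which did not pass. Wdfy1, Fgfbp3, Mmrn1, Crb1 and Cyfip2 were too dim to test, and Nlrp12 had no probe set of its own symbol. Cyfip2 averaged 2.42 ± 0.28 (SD, n = 6) in high fat and 1.84 ± 0.05 in low fat mice at day 3, and 2.25 ± 0.15 in high fat and 1.78 ± 0.10 in low fat mice at day 28. Wdfy1, Fgfbp3 and Mmrn1 went the other way at both days. At day 3 they averaged 2.265, 2.79 and 2.371 in high fat and 2.511, 3.476 and 2.639 in low fat mice. Crb1 averaged 1.907 in high fat and 1.881 in low fat mice at day 3, and 1.974 and 2.023 at day 28. All levels of these dim genes lay below the filter level of 4, so no size is read from them. The strain of each mouse was not checked by any of these values.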

How the data were processed

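RNA of 24 quadriceps samples was hybridised to 1-colour Affymetrix arrays. The deposited values are linear intensities per probe set, made by the authors with GCRMA, per the submitters' processing notes (version not given in the sources used here). Of 16361 probe sets, 64 were controls, 14771 had 1 gene symbol, 589 several and 937 none listed. Here log2 was taken of the deposited intensity with no offset, and the probe set of highest mean was kept per gene. Genes with log2 over 4 on at least 6 arrays were fitted in limma 3.58.1 (R 4.3.3, lmFit and eBayes, 20 residual degrees of freedom), all 24 arrays together, with Benjamini-Hochberg adjustment over all tested genes. The fit was tested on simulated data. The number of arrays limits the precision.

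The genes of the set and all lists were chosen with earlier results of these data known. Named genes were all of the set, the called genes of each list (at most the 4 of largest difference per comparison), the subline genes (1 item is not reported here), and the 5 genes of highest and lowest correlation with Nnt. Prdx1 at both days and Slc25a39 at day 28 were named beyond that limit, after their values were seen. Alternatives changed the scaling, offset, filter, arrays, array weights, eBayes settings, replicate block and covariates. Low fat day 3 replicate 1, whose extraction protocol names no DNase step, was left out in another fit. Leaving out high fat day 3 replicate 5 and the relations with adipocyte markers were added after seeing the data. Mice are separate animals.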

Additional observations from a re-analysis of the deposited data

Results flagged for a closer look

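Idh1 in high fat day 3 replicate 5 had a log2 level of 8.266, far above the nearest mouse of its group at 7.433 (Dixon ratio 0.776). Gsr in low fat day 3 replicate 4 had a level of 4.917, below the nearest at 5.198 (Dixon ratio 0.638). Over 32 groups of 6 arrays examined, 2 had such a value, and chance flags about 1 in 20. The Idh1 diet difference changed by -0.8796 (log2) between day 28 and day 3. Since this pattern was among those that chose the gene, it is a description, and Idh1 fell on the other side of the threshold without low fat day 3 replicate 1 (-0.84), with no filter and with the adipocyte mean in the fit (-0.53).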

How the results depend on the processing

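Of 542 values of the set under the alternatives, 522 moved by less than 1 SD between replicates, 19 moved by more and 1 reversed a called difference. It was Idh1 at day 28, at 0.0912 with the adipocyte mean as a covariate. That fit cannot tell diet and fat cell markers apart at day 28. Sign changes of uncalled differences were not counted as reversed. Examples at day 28 were Txn2 (0.11, and -0.06 with the slow fibre mean) and Gsr (0.05, and -0.15 with the adipocyte mean). All 422 values under settings other than the 3 marker covariates moved by less than 1 SD, and there Nnt ran from 1.26 to 1.45 at day 3 and from 1.30 to 1.47 at day 28. The filters, the eBayes settings and the replicate block leave a difference of group means unchanged by construction. So does leaving out arrays of a group that a comparison does not use. Values under these settings are therefore no check on the size of a difference. Genes called at day 3 (861) numbered 507 with only the arrays compared, 20 with the slow fibre mean and 352 with the mitochondrial content mean as covariate. At day 28 (726) they numbered 42, 26 and 42 with the slow fibre, adipocyte and mitochondrial content means. Of the calls at day 28, 42.7% were higher, against 50.9% under quantile normalization. For the change of the diet difference (80) they numbered 6 with no filter, 278 with array weights, 10 with the adipocyte mean and 176 with the replicate block, and under quantile normalization 59% of the calls were higher, against 48.8%. For day 28 against day 3 on high fat (32) they numbered 9 with no filter, 106 with array weights, 18, 13 and 14 with the slow fibre, adipocyte and mitochondrial content means, 20 without low fat day 3 replicate 1 and 8 without high fat day 3 replicate 5. On low fat (20) they numbered 34 with quantile normalization, 6 with centring, 3 with no filter, 0 by limma with only the arrays compared, 132 with array weights, 0 and 48 with the adipocyte and mitochondrial content means, 32 with the replicate block, 10 without low fat day 3 replicate 1 and 59 without high fat day 3 replicate 5. The causes were not tested. For the pairing of mice, group means were subtracted and arrays were compared between groups sharing a diet or a day. On these residual levels, arrays of the same replicate number correlated at -0.384 to 0.537. In 4 of 24 such comparisons an array correlated best with its own number, so the numbers do not pair the mice. With the block, 812 genes were called at day 3 and 727 at day 28. No alternative changed the background correction, so its part in dim probe sets was not tested.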
